A study of Mus musculus with 9 samples.

Results

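The genes described here are 9 that serve the tubulovesicles and the apical canaliculus of the gastric parietal cell: Ezr, Rab11a, Rab25, Rab27b, Lasp1, Hip1r, Stx3, Vamp2 and Clic6. They were chosen by name, and every probe set that the platform annotation pairs with one of them alone was taken, which gave 29 probe sets of 45037 on the array and 9 genes of 18193 with such a probe set. Of the 29 probe sets, 25 passed a filter on dim signals (above their own array's median on at least 3 of the 9 arrays), and all 9 genes kept at least 1. The brightest probe set of each of the 9 genes lay above the median on all 9 arrays, so the filter did not select these genes by group.

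Parietal cells secrete gastric acid through the H+/K+-ATPase. In the resting cell the pump sits in cytoplasmic tubulovesicles, and on stimulation these membranes fuse with an apical canaliculus lined with actin-filled microvilli, from which the pump is later taken back. Small GTPases of the Rab family and SNARE proteins serve the traffic and the fusion, ezrin and other actin-binding proteins serve the microvilli, and clathrin adaptors serve the retrieval.

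RNA of C57BL/6 mouse stomach cells was measured on 9 Affymetrix mouse genome arrays, 3 for each of 3 groups. The Parietal group is gastric parietal cells, with no account of how they were isolated in the labels. The Isthmus group is Mist1+ Tomato+ corpus cells taken after ablation of Lgr5+ cells, and the Chief group is Mist1+ Tomato+ corpus cells without that ablation, both obtained by flow cytometry. Mist1 (gene Bhlha15) is a transcription factor of chief cells that also marks a few cells of the isthmus, the zone of the gland where new cells arise. The labels give neither the age and sex of the mice, the way Lgr5+ cells were ablated and the further alleles, nor whether the samples of a group came from separate animals. Each p-value therefore reflects the spread among these samples alone, an unknown part of which may be technical.

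Markers of the labelled cells were read first, as log2 signals. Atp4b, the beta subunit of the proton pump, lay between 14.09 and 14.35 on the Parietal arrays, 11.97 and 12.80 on the Isthmus arrays and 12.55 and 12.75 on the Chief arrays, so its RNA was also bright in both Mist1+ groups. Of 16 parietal markers tested, 13 were higher in the Parietal than in the Chief group and 12 were higher than in the Isthmus group, with none lower. The summed linear signal of the parietal markers was 115469 to 133527 on the Parietal arrays, 32667 to 54537 on the Isthmus arrays and 42235 to 59789 on the Chief arrays, and 0 of these markers differed between Isthmus and Chief by the test. Chief markers summed to 17839 to 30419, 40467 to 49339 and 117892 to 163663 in the same order of groups, and endocrine markers to 1481 to 2160, 19972 to 44259 and 46273 to 85599. Bhlha15 was below the array median on 2 of the 3 Isthmus arrays, at 1.34 to 7.36 against 9.20 to 10.75 on the Chief arrays, a difference that was not called (limma adjusted p = 0.141). Lgr5 was at 2.93 to 5.97 on the Isthmus arrays, below the median on all 3, and at 7.54 to 9.36 on the Chief arrays, also not called (adjusted p = 0.113). The array of Parietal replicate 1 had Xist at 13.13 and Chief replicate 3 at 11.72, against at most 5.93 on the other arrays. The Y-linked gene Eif2s3y was at 2.84 on Parietal replicate 1, 10.63 on Chief replicate 3 and 11.11 to 11.59 on the others. Chief replicate 3 was thus high in both genes. Fibroblast markers reached a summed signal of 26038 on a Chief array, against at most 384 and 179 on the Parietal and Isthmus arrays. Endothelial and blood markers reached 24470 on a Chief array, against at most 2915 and 3484. The source of these signals was not tested. Calls of named genes that were lost without both Xist-high arrays, and list counts that moved without them, are given with those values.

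The deposited log2 values were tested as they are, and one property of their scale touches every difference below. The arrays share a trimmed mean signal of 496 to 497, but their median log2 signals ran from 5.80 to 5.86 on the Parietal arrays, 5.92 to 6.32 on the Isthmus arrays and 6.38 to 6.70 on the Chief arrays. Centring each array on its own median therefore raises every Parietal minus Chief difference by 0.69 log2 every Parietal minus Isthmus difference by 0.32 and every Isthmus minus Chief difference by 0.38. Under that centring 2913 genes were called higher and 741 lower in the Parietal than in the Chief group, where the deposited scale gave 1086 and 1396. On the deposited scale the median difference of the 11006 genes tested was -0.10 for Parietal minus Chief, -0.09 for Parietal minus Isthmus and 0.03 for Isthmus minus Chief.

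The 9 genes did not move as one block. Counted through the brightest probe set and at a Benjamini-Hochberg adjusted p under 0.05 from limma, 3 of the 9 were higher in the Parietal than in the Chief group (Clic6, Ezr and Rab11a), where 9.87% of all genes tested were called higher. Rab25 was the 1 gene called lower, where 12.7% of all genes were, and 5 genes were not called. Every Parietal array lay above every Chief array for 4 of the 9 genes and below for 1, where 18.7% and 21.2% of all genes did so. Against the Isthmus group Clic6 and Ezr were higher, where 11.4% of all genes were, Rab25 was lower, where 14.3% were, and 6 genes were not called. Every Parietal array lay above every Isthmus array for 5 of the 9 genes and below for 1, where 20.3% and 24% of all genes did so. Of the 25 probe sets, 6 were higher and 2 lower against Chief, where 7.59% and 10.6% of all probe sets tested were, and 4 were higher and 2 lower against Isthmus, where 9.03% and 11.2% were. The median difference of the 9 genes was 0.50 for Parietal minus Chief and 0.48 for Parietal minus Isthmus, or 1.20 and 0.79 after centring. In these bulk samples, fewer cells of a type and less RNA per cell cannot be told apart.

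**Figure D1:**
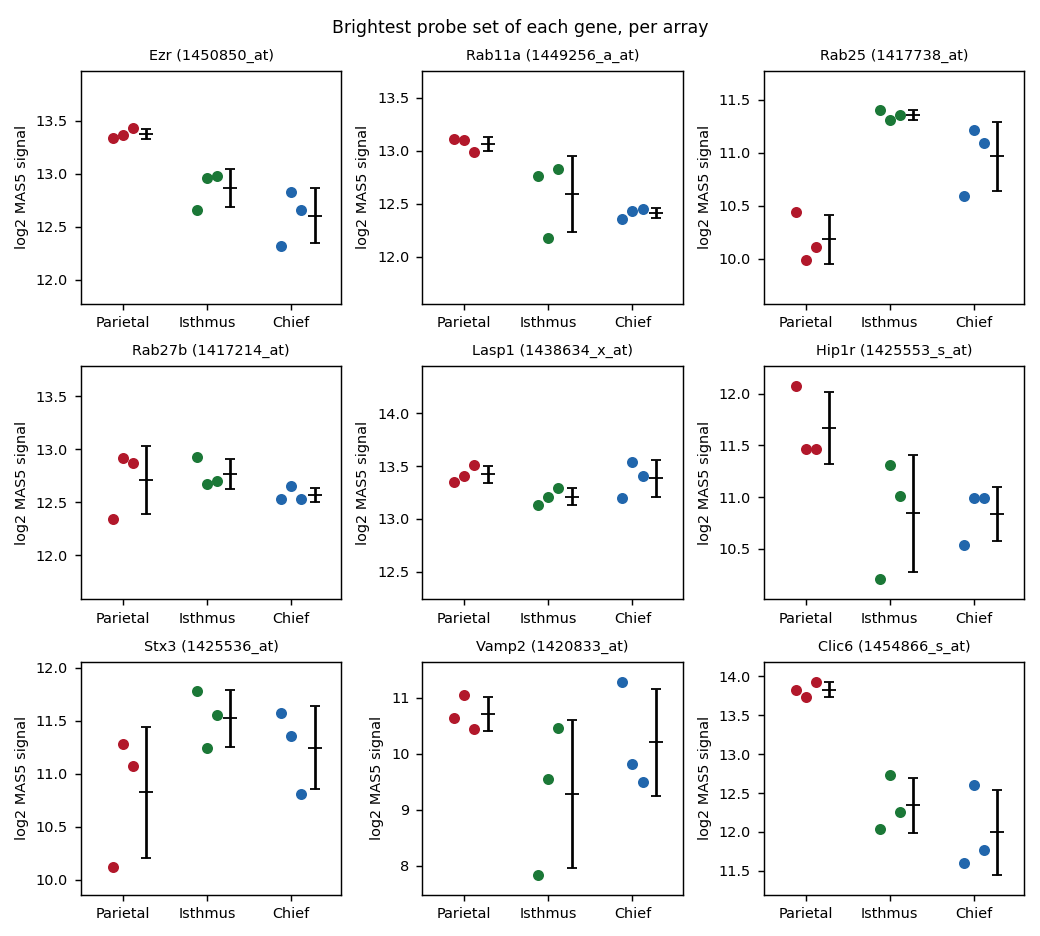
Log2 signal of the brightest probe set of each of the 9 genes on every array, 1 panel per gene, with Parietal, Isthmus and Chief from left to right; points are arrays and bars are group means. Clic6 (13.73 to 13.93) and Ezr (13.34 to 13.43) lay higher on all 3 Parietal arrays than on any Isthmus or Chief array, and Rab25 (9.99 to 10.44) lay lower on all 3.

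Clic6, also called parchorin, is a member of the chloride intracellular channel family first described in water-secreting epithelia, rabbit parietal cells among them. It was higher in the Parietal group by both of its probe sets. The probe set 1454866_s_at read 13.83, 13.73 and 13.93 on the Parietal arrays, 12.04, 12.73 and 12.26 on the Isthmus arrays, and 11.60, 12.61 and 11.77 on the Chief arrays. All Parietal arrays lay above all others, while the Isthmus and Chief arrays overlapped. Its log2 difference was 1.84 ± 0.24 (SE, n = 3 each) for Parietal minus Chief, or 3.57-fold, with a limma adjusted p of 0.000197, and 1.49 ± 0.24 for Parietal minus Isthmus, with an adjusted p of 0.00075.

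The other Clic6 probe set, 1434165_at, spread the groups further, with 13.71, 13.65 and 13.80 on the Parietal arrays, 11.04, 11.94 and 11.35 on the Isthmus arrays, and 10.06, 11.45 and 10.80 on the Chief arrays. Its log2 difference was 2.95 ± 0.31 (SE, n = 3 each; limma adjusted p = 3.84e-05), or 7.73-fold, for Parietal minus Chief and 2.28 (adjusted p = 0.000214), or 4.85-fold, for Parietal minus Isthmus. The probe sets of Clic6 thus gave the same direction with unequal sizes. Both remained called higher against both groups under every alternative run, including without both Xist-high arrays, where 1454866_s_at had an adjusted p of 0.00518 against Chief.

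Ezr encodes ezrin, which ties membrane proteins to the actin of apical microvilli and is abundant at the parietal canaliculus. Its probe set 1450850_at read 13.34, 13.37 and 13.43 on the Parietal arrays, 12.66, 12.96 and 12.98 on the Isthmus arrays, and 12.32, 12.83 and 12.66 on the Chief arrays. The Parietal arrays were the 3 highest and lay within 0.09 log2 of each other. The log2 difference was 0.78 ± 0.15 (SE, n = 3 each; limma adjusted p = 0.00265), or 1.71-fold, for Parietal minus Chief, and 0.51 ± 0.15 (adjusted p = 0.025), or 1.43-fold, for Parietal minus Isthmus. The call against Isthmus was lost without Isthmus replicate 1 (0.41, adjusted p = 0.102), without Parietal replicate 1, 2 or 3 (adjusted p = 0.0582 to 0.0848), without both Xist-high arrays (adjusted p = 0.0686), under quantile normalization (0.32, adjusted p = 0.121) and without the intensity trend (adjusted p = 0.216). The call against Chief was kept with any array left out, at adjusted p of 0.00236 to 0.0146, and lost in a fit without the intensity trend (0.0879). The second Ezr probe set, 1456725_x_at, stayed below the filter.

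Rab11a is a small GTPase of recycling endosomes that is found on tubulovesicles and takes part in the recruitment of the pump. The brighter probe set, 1449256_a_at, read 13.11, 13.10 and 12.99 on the Parietal arrays, 12.76, 12.18 and 12.83 on the Isthmus arrays, and 12.36, 12.43 and 12.45 on the Chief arrays. Again the Parietal arrays were the 3 highest. The log2 difference was 0.65 ± 0.16 (SE, n = 3 each; limma adjusted p = 0.0146) for Parietal minus Chief, and 0.48 for Parietal minus Isthmus, with a 95% interval of 0.12 to 0.83 that did not pass the test (adjusted p = 0.0574). The call against Chief was lost without Parietal replicate 2 (0.64, adjusted p = 0.0505), without both Xist-high arrays (adjusted p = 0.0884) and in a fit without the intensity trend (adjusted p = 0.15). Against Isthmus this probe set was called higher under 4 of 22 alternatives. These were centring (0.79, adjusted p = 0.0125), 1 probe set per gene in the fit, the mean of a gene's probe sets, and leaving out Isthmus replicate 3.

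The second Rab11a probe set, 1434549_at, read 11.25, 12.02 and 11.61 on the Parietal arrays, 10.41, 10.46 and 9.90 on the Isthmus arrays, and 9.88, 10.24 and 9.83 on the Chief arrays. The Parietal arrays did not overlap the others here either. Its log2 differences were 1.64 (limma adjusted p = 0.00168), or 3.12-fold, against Chief and 1.37 (adjusted p = 0.00463), or 2.58-fold, against Isthmus, and both calls were kept without both Xist-high arrays.

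Rab25, an epithelial relative of Rab11a in the same subfamily, went the other way. Its single probe set, 1417738_at, read 10.44, 9.99 and 10.11 on the Parietal arrays, 11.40, 11.31 and 11.35 on the Isthmus arrays, and 10.59, 11.21 and 11.09 on the Chief arrays. The Parietal arrays were the 3 lowest and the Isthmus arrays the 3 highest. For Parietal minus Isthmus the log2 difference was -1.17 ± 0.25 (SE, n = 3 each; limma adjusted p = 0.00526), or 2.25-fold lower in the Parietal group, and this call was kept under all 22 alternatives, at adjusted p of 0.00199 to 0.0415. For Parietal minus Chief it was -0.78 ± 0.25 (adjusted p = 0.047), and this call was fragile. It was lost on centring each array (-0.09, adjusted p = 0.85), without both Xist-high arrays (adjusted p = 0.118) and without any 1 array other than Chief replicate 1 (-0.91 to -0.66, adjusted p = 0.0502 to 0.141).

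The stretches just before the transcription starts of Ezr, Rab11a and Rab25 are shown because the first and second were higher in the Parietal group and the third was lower. Each is the 250 bases upstream of the start, from RefSeq on GRCm38.p6, on the gene's own strand (minus for all 3 genes), at chr17:6782781-6783030 for Ezr, chr9:64737757-64738006 for Rab11a and chr3:88548280-88548529 for Rab25, with each CpG dinucleotide in capitals.
Ezr: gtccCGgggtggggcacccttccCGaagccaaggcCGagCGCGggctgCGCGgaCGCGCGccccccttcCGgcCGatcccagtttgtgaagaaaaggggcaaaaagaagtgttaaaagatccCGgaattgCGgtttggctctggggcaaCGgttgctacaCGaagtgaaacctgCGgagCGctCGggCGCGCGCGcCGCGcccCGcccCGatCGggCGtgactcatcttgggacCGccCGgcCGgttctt
Rab11a: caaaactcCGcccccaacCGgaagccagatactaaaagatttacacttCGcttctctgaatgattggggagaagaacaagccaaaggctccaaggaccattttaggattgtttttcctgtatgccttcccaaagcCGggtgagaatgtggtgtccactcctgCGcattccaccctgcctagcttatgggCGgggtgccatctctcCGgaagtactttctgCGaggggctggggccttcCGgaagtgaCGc
Rab25: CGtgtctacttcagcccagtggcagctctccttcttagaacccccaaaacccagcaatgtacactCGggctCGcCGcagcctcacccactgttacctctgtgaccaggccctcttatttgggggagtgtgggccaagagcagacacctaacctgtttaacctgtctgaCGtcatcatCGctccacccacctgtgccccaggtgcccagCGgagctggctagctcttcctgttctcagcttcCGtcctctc

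The Ezr stretch was 67.2% G and C with 32 CpG, more than 95.4% of the 32851 mouse promoters in the table held. Rab11a had 53.6% and 10 CpG, and Rab25 58.4% and 8 CpG, near the medians of 52.4% and 6 CpG over all promoters. In all, the stretches of 6 of the 9 genes were used, the other 3 being those of Hip1r, Lasp1 and Stx3. Those 3 were not wholly upstream of the annotated gene. The Lasp1 stretch (chr11:97799315-97799564) lay inside a gene that starts at 97799005. The Stx3 stretch (chr19:11819404-11819653, minus strand) lay inside a gene that reaches to 11821569. The Hip1r stretch ended at 123973627, past the annotated gene start at 123973602. Clic6, Vamp2 and Rab27b were not searched. TCAAGGTCA, a motif bound by estrogen-related receptors, and its inner part AAGGTCA were searched on both strands. They occurred in 0 of the 6 stretches, and in 0.387% and 4.08% of all promoters. That says only that these letters are not in these windows.

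Hip1r encodes a protein that links clathrin coats to actin, and mice that lack it lose parietal tubulovesicles. All 3 of its probe sets were higher on every Parietal array than on any Isthmus or Chief array, yet most of the tests did not pass. The brightest, 1425553_s_at, read 12.07, 11.47 and 11.47 on the Parietal arrays, 10.21, 11.31 and 11.01 on the Isthmus arrays, and 10.54, 10.99 and 10.99 on the Chief arrays. Its log2 difference was 0.83 for both Parietal comparisons, with a 95% interval of 0.18 to 1.48 against Chief (limma adjusted p = 0.0753) and an adjusted p of 0.0715 against Isthmus.

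The probe set 1425552_at of Hip1r read 10.61, 11.06 and 10.87 on the Parietal arrays, 10.16, 10.22 and 9.84 on the Isthmus arrays, and 10.08, 10.01 and 9.74 on the Chief arrays. It was called higher against Chief, by 0.90 (limma adjusted p = 0.0401), and that call was lost without any 1 Parietal or Chief array (adjusted p = 0.0501 to 0.144) and without both Xist-high arrays (adjusted p = 0.126). The third, 1425551_at, had the widest spread, at 9.60, 10.45 and 9.46 on the Parietal arrays, 8.47, 7.69 and 8.69 on the Isthmus arrays, and 8.52, 8.92 and 7.01 on the Chief arrays, with a difference of 1.69 against Chief (adjusted p = 0.0534). After centring, the brightest Hip1r probe set was called higher than in both other groups, by 1.52 against Chief (adjusted p = 0.00133) and 1.14 against Isthmus (adjusted p = 0.0106).

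Lasp1 encodes an actin-binding protein with a LIM and an SH3 domain that is phosphorylated in stimulated parietal cells. It had 9 probe sets, 7 of them tested. On the deposited scale their log2 differences against Chief ran from -0.80 to 0.36, and none was called. The brightest, 1438634_x_at, read 13.35, 13.41 and 13.51 on the Parietal arrays, 13.13, 13.21 and 13.29 on the Isthmus arrays, and 13.20, 13.54 and 13.41 on the Chief arrays. The Parietal and Chief arrays overlapped, and the log2 difference was 0.04 with a 95% interval of -0.20 to 0.28 (limma adjusted p = 0.852). One dimmer probe set, 1448207_at, was lower on the Parietal arrays (9.29, 9.60 and 10.00) than on the Isthmus arrays (10.34, 10.51 and 10.80), by -0.92 (adjusted p = 0.048), and read 10.67, 10.29 and 10.33 on the Chief arrays. That call was lost under 14 of 20 alternatives. Among them were centring (-0.60, limma adjusted p = 0.228), quantile normalization, no filter, 2 groups in the fit, no intensity trend and the replicate block. It was also lost without Parietal replicate 1 or 2, any 1 Isthmus array, or Chief replicate 2 or 3 (adjusted p = 0.0544 to 0.16), and without both Xist-high arrays (adjusted p = 0.169). On centring, the brightest probe set was instead called higher than in Chief by 0.73 (adjusted p = 0.00123) and than in Isthmus by 0.53 (adjusted p = 0.0123). Against Chief, 1456309_x_at, 1455470_x_at, 1438633_x_at and 1439264_x_at were then called higher too (0.63 to 1.05). The probe sets 1460173_at (0.34, adjusted p = 0.172) and 1448207_at (-0.11, adjusted p = 0.851) were not.

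**Figure D2:**
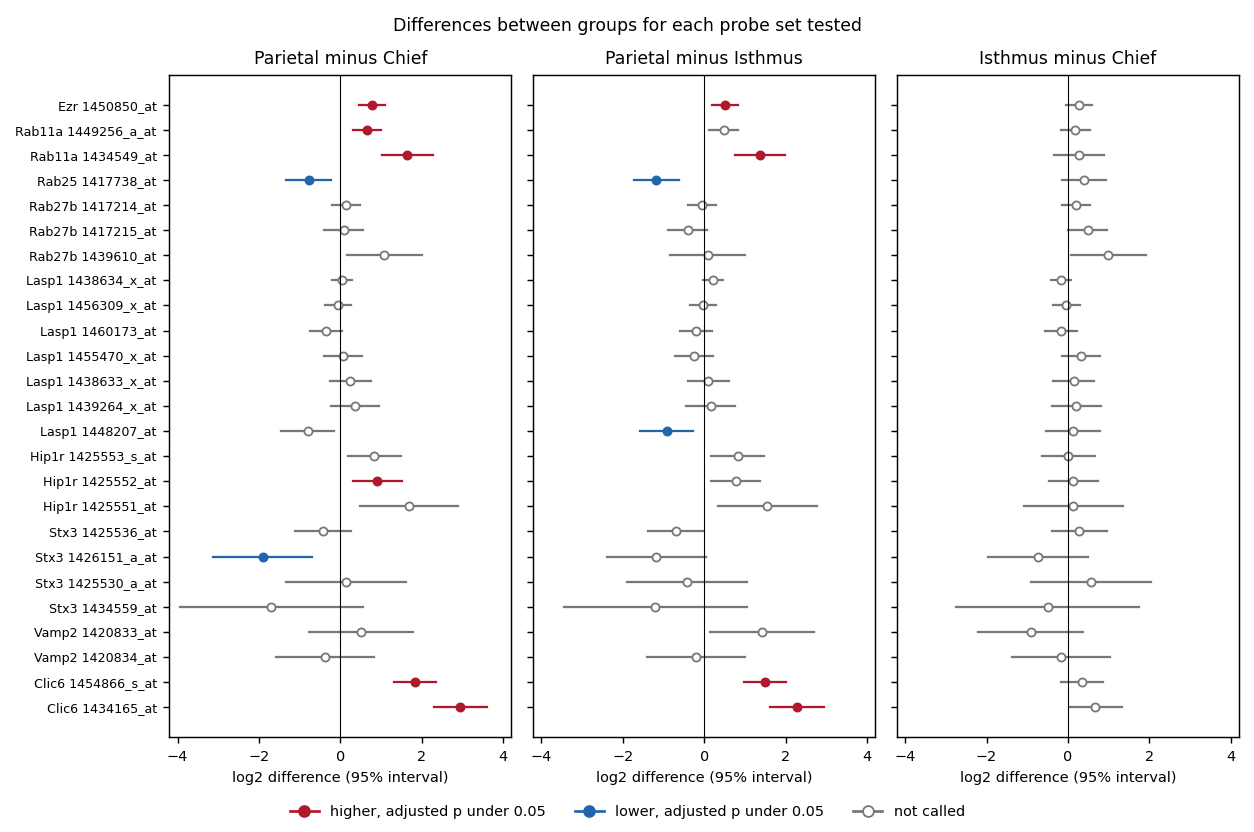
Log2 difference with its 95% interval for each of the 25 tested probe sets of the 9 genes, in the comparisons Parietal minus Chief, Parietal minus Isthmus and Isthmus minus Chief. The Clic6 probe sets stand farthest to the right for Parietal minus Chief (2.95 and 1.84), and the probe sets of Stx3, Lasp1 and Rab27b differ among themselves.

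Rab27b, a GTPase of regulated secretory vesicles that has been placed on tubulovesicles, was bright in all groups. The probe set 1417214_at read 12.34, 12.92 and 12.87 on the Parietal arrays, 12.93, 12.67 and 12.70 on the Isthmus arrays, and 12.53, 12.65 and 12.53 on the Chief arrays. The Parietal arrays overlapped with both other groups, and the log2 differences were 0.14 against Chief (limma adjusted p = 0.609) and -0.06 against Isthmus (adjusted p = 0.851). The dimmer 1439610_at differed by 1.08 against Chief without passing the test (adjusted p = 0.1), with Parietal arrays at 10.04 to 10.96, Isthmus arrays at 10.24 to 10.71 and Chief arrays at 8.57 to 10.37. For 1417215_at every Parietal array (10.62 to 10.82) lay below every Isthmus array (11.02 to 11.18), by -0.41 without passing the test (limma adjusted p = 0.23). Its difference was 0.08 against Chief (adjusted p = 0.849). On centring, all 3 tested probe sets were called higher than in Chief. These were 1417214_at (0.83, adjusted p = 0.0103), 1417215_at (0.77, adjusted p = 0.0494) and 1439610_at (1.77, adjusted p = 0.00817).

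The membrane fusion proteins come next. Stx3 encodes a syntaxin of apical membranes, and its brightest probe set, 1425536_at, read 10.12, 11.28 and 11.07 on the Parietal arrays, 11.78, 11.24 and 11.55 on the Isthmus arrays, and 11.57, 11.36 and 10.81 on the Chief arrays. The groups overlapped, and the log2 difference of -0.42 against Chief did not pass (limma adjusted p = 0.397) and turned to 0.27 on centring. A dimmer probe set for alternative transcripts, 1426151_a_at, read 7.38, 6.95 and 7.48 on the Parietal arrays, 8.83, 7.88 and 8.62 on the Isthmus arrays, and 10.26, 8.40 and 8.89 on the Chief arrays. The Parietal arrays were the 3 lowest, and the difference against Chief was -1.91 ± 0.57 (SE, n = 3 each; adjusted p = 0.0325). It lost its call on centring (-1.22, adjusted p = 0.161), without both Xist-high arrays (adjusted p = 0.0977), and without Chief replicate 1 (-1.38, adjusted p = 0.131), Chief replicate 3 or any 1 Parietal array (adjusted p = 0.0572 to 0.0953).

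Vamp2, a vesicle SNARE, had its brighter probe set, 1420833_at, at 10.63, 11.04 and 10.44 on the Parietal arrays, 7.84, 9.55 and 10.45 on the Isthmus arrays, and 11.28, 9.82 and 9.50 on the Chief arrays. The Parietal arrays stood close together and the Isthmus arrays spread over 2.61 log2. Neither the difference of 0.50 against Chief (limma adjusted p = 0.617) nor that of 1.42 against Isthmus (adjusted p = 0.114) passed the test. Against Isthmus it was called higher on centring (1.74, adjusted p = 0.0465) and without Isthmus replicate 3 (2.01, adjusted p = 0.0379), and without Isthmus replicate 1 the difference was 0.70 (adjusted p = 0.391). Its other probe set, 1420834_at, overlapped in all 3 comparisons.

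After Lgr5+ cell ablation, 0 of the 9 genes were called in either direction between the Isthmus and Chief groups by limma, where 0.336% of all genes tested were called higher, 1.07% lower and 1.41% in all, and 0 of the 9 had an unadjusted p under 0.05 in that fit, where 17.5% did. Their median difference was 0.20, or 0.57 on centring. On the deposited scale Isthmus minus Chief was 0.26 for Ezr (95% interval -0.05 to 0.58), 0.35 for Clic6 1454866_s_at (-0.16 to 0.86), 0.39 for Rab25 (-0.16 to 0.94) and, with the widest interval of the 9 brightest probe sets, -0.92 for Vamp2 1420833_at (-2.21 to 0.37). On centring 0 of the 9 were called either, and Ezr came nearest, at 0.64 (adjusted p = 0.0518). Rab25 and Rab27b 1417214_at had every Isthmus array above every Chief array, as 10.6% of all genes did. Among the 25 probe sets, 3 had an unadjusted p under 0.05 and 0 passed the adjustment, where 1.19% of all probe sets did: Clic6 1434165_at (0.67, adjusted p = 0.316), Rab27b 1417215_at (0.49, adjusted p = 0.321) and Rab27b 1439610_at (0.99, adjusted p = 0.291).

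**Figure D3:**
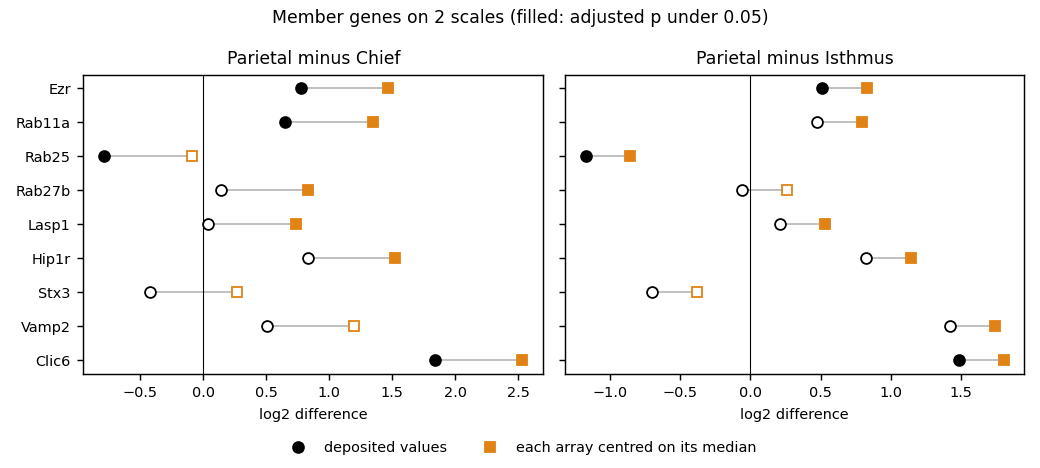
Log2 difference of the brightest probe set of each of the 9 genes on the deposited scale and after centring each array on its median. The shift is 0.69 for Parietal minus Chief, which takes Rab25 to -0.09 and Stx3 to 0.27, and 0.32 for Parietal minus Isthmus, where Rab25 stays at -0.86.

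Likeness to other genes was described for the 3 of the 9 genes with the largest absolute Parietal minus Chief difference of the brightest probe set, Clic6, Hip1r and Rab25. Pearson's r was taken over the 9 arrays among 10532 named genes, with no test, since the arrays share the 3 groups and the array scale. Closest to Clic6 were Fmc1 (r = 0.992), Idh3a (0.987) and Casp6 (0.986). Closest to Hip1r was Clic3 (0.977), and closest to Rab25 was Sqor (0.985), which averaged 11.01 on the Parietal, 12.66 on the Isthmus and 11.92 on the Chief arrays.

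The partners of these proteins were read from gene lists, beside the 22.6% of all genes called in either direction for Parietal minus Chief and the 25.7% for Parietal minus Isthmus. Ezrin's relatives, scaffolds and kinases had 9 tested genes, of which 2 were higher and 1 was lower in the Parietal than in the Chief group, with a median difference of 0.23. The count was 4 higher and 0 lower on centring, and 1 and 0 without both Xist-high arrays. Rdx, encoding the ezrin relative radixin, read 12.09, 12.62 and 12.71 on the Parietal arrays, 9.29, 9.25 and 7.63 on the Isthmus arrays, and 10.51, 9.13 and 8.38 on the Chief arrays. No array of either other group reached the Parietal level, and the differences were 3.13 against Chief (limma adjusted p = 0.00146, and 3.72 without Chief replicate 1) and 3.75 against Isthmus (adjusted p = 0.000361).

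Of 29 tested genes of Rab11 and Rab8 recycling, 6 were higher and 2 lower in the Parietal than in the Chief group, with a median of 0.44, and on centring 13 were higher and 0 lower. Without both Xist-high arrays 4 were higher and 0 lower. Rab3ip, which encodes an exchange factor for Rab8, read 11.85, 11.76 and 11.86 on the Parietal arrays, 9.0, 9.05 and 10.11 on the Isthmus arrays, and 8.42, 9.53 and 9.80 on the Chief arrays, a difference of 2.57 against Chief (limma adjusted p = 0.000824). Rab11fip5, encoding a Rab11 effector, was at 11.62 to 12.28 on the Parietal arrays, 4.40 to 9.35 on the Isthmus arrays and 5.53 to 9.11 on the Chief arrays. These values are of its brightest probe set, and since 1 Chief array lay below its median, the fold is a bound. With the dim array set to its median, this probe set was at least 17.9-fold higher in the Parietal than in the Chief group. The limma adjusted p was 0.0111, and 0.0647 without the intensity trend. That bound rests in part on Chief replicate 1, the dim array, without which the fold was 10.6, and it was 27.3 without Chief replicate 3. The bound does not hold for the whole gene. A dimmer tested Rab11fip5 probe set differed less, averaging 9.92 on the Parietal, 5.56 on the Isthmus and 7.26 on the Chief arrays.

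The Rab27 and Rab3 family with its effectors was split, with 3 of 14 tested genes higher and 4 lower in the Parietal than in the Chief group and a median of -1.03. On centring 4 were higher and 2 lower with a median of -0.34, and without both Xist-high arrays 2 were higher and 3 lower. Rph3al, encoding a Rab effector related to rabphilin, read 13.55, 13.04 and 13.33 on the Parietal arrays, 7.42, 9.61 and 10.89 on the Isthmus arrays, and 10.63, 10.89 and 11.19 on the Chief arrays. The difference against Chief was 2.40 (limma adjusted p = 0.0145, and 0.0813 without both Xist-high arrays). Rab3d, a GTPase of zymogen granules, differed by -2.83 (adjusted p = 0.000131), with 9.19, 9.80 and 8.42 on the Parietal arrays, 11.75, 11.33 and 11.57 on the Isthmus arrays, and 12.45, 11.92 and 11.53 on the Chief arrays. Sytl2, encoding a synaptotagmin-like Rab27 effector, was at least 18.2-fold lower in the Parietal than in the Chief group (adjusted p = 0.000131), or 11.9-fold without Parietal replicate 3, the only Parietal array below its median. Chief markers were lower as well, 10 of 10 in the Parietal than in the Chief group, or 9 on centring. In the Isthmus group 4 of 10 chief markers were lower than in Chief, or 2 on centring. There Sytl2 averaged 11.78 against 11.28 in Chief and Rab3d 11.55 against 11.97, and neither was called. The part of chief markers in the result was not tested.

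Among 29 tested SNAREs and SNARE partners, 6 were higher and 3 lower in the Parietal than in the Chief group, with a median of 0.40, and on centring 15 were higher and 1 lower. Without both Xist-high arrays 5 were higher and 1 lower. Stx12, a syntaxin of endosomes, read 12.84, 12.85 and 12.95 on the Parietal arrays, 11.68, 11.82 and 11.40 on the Isthmus arrays, and 10.31, 11.56 and 11.77 on the Chief arrays, a difference of 1.67 against Chief (limma adjusted p = 0.00208). Snap25, a SNARE of neurons and endocrine cells, was at least 12.7-fold lower in the Parietal than in the Chief group (adjusted p = 0.0024). It is also on the endocrine marker list, of which 11 of 14 tested genes were lower in the Parietal group, and the part of endocrine cells in its difference was not tested. Of 29 tested genes of clathrin coats, the machinery Hip1r works with, 2 were higher and 1 was lower against Chief, and 0 were called against Isthmus. Against Chief the count was 5 higher and 0 lower on centring, and 0 and 1 without both Xist-high arrays.

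In the list of cortical actin and microvillus genes, 43 tested, 6 were higher and 17 lower in the Parietal than in the Chief group, and centring turned the split to 21 higher and 6 lower, so the balance of this list depends on the scale. Without both Xist-high arrays 3 were higher and 8 lower. Cobl, encoding an actin nucleator, read 12.36, 12.11 and 12.23 on the Parietal arrays, 8.13, 9.49 and 7.25 on the Isthmus arrays, and 8.30, 9.45 and 8.68 on the Chief arrays, a difference of 3.42 against Chief (limma adjusted p = 0.000519). Myo1a, a myosin of the intestinal brush border, differed by -3.83 (adjusted p = 8.96e-05) and Evl, an actin regulator of the Ena/VASP family, by -3.95 (adjusted p = 1.22e-05). Markers of some other cell types were also lower in the Parietal than in the Chief group, where 12.7% of all genes were. These were 7 of 7 tested pit markers, 4 of 4 neck markers and 2 of 3 tuft markers beside the chief and endocrine lists. Of the other lists, 0 of 2 tested leukocyte, 0 of 2 fibroblast, 0 of 1 smooth muscle and 1 of 3 endothelial and blood markers were lower. On centring, 4 of the 7 pit, 4 of the 4 neck and 2 of the 3 tuft markers were lower, where 741 of 11006 genes were. Pit markers summed to 52739 to 59969 in linear signal on the Parietal arrays, 73995 to 87286 on the Isthmus arrays and 112186 to 134166 on the Chief arrays, and 0 markers of these 3 lists were at 0 on all arrays. Neck markers summed to 2775 to 7150, 13632 to 14232 and 13306 to 30624, and tuft markers to 204 to 476, 2520 to 3937 and 1656 to 4272, in the same order of groups. Their part in the differences of Myo1a and Evl was not tested.

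Clic6 had 4 relatives that were tested. Of these genes of the chloride intracellular channel family, 0 were higher and 3 were lower in the Parietal than in the Chief group, and likewise against Isthmus. Clic3, the fourth, averaged 9.16 on the Parietal arrays, 8.21 on the Isthmus arrays and 8.07 on the Chief arrays, and its difference of 1.09 against Chief did not pass (limma adjusted p = 0.159). Clic1 read 10.61, 10.69 and 10.43 on the Parietal arrays, 12.32, 11.75 and 12.29 on the Isthmus arrays, and 11.54, 11.89 and 11.71 on the Chief arrays. The difference was -1.14 against Chief (limma adjusted p = 0.00274) and -1.54 against Isthmus (adjusted p = 0.000293). Clic4 differed by -1.21 against Chief (adjusted p = 0.00247). Clic5 lay below the median on all 3 Parietal arrays and was at least 2.86-fold lower than in Chief (adjusted p = 0.0407), a bound of 1.69 without Chief replicate 3 and 5.93 without Chief replicate 1. The Clic5 call against Chief was lost under 15 of 21 alternatives, among them without both Xist-high arrays (adjusted p = 0.153) and without Parietal replicate 2 or 3, Isthmus replicate 1 or 2, or Chief replicate 2 or 3 (adjusted p = 0.0542 to 0.168). Its call against Isthmus was lost under 11 of 21, among them without Parietal replicate 2 or 3 or any 1 Isthmus array (adjusted p = 0.0505 to 0.118). The calls of Clic1 and Clic4 against Chief were likewise lost on centring (adjusted p = 0.231 and 0.145), where Clic3 was called higher and 0 genes of this family lower.

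Against the Isthmus group the partner lists gave 3 higher and 1 lower of 9 for the ezrin list, 4 and 2 of 29 for recycling, 4 and 5 of 14 for Rab27 and Rab3, 5 and 2 of 29 for SNAREs, and 7 and 14 of 43 for cortical actin. On centring these counts were 3 and 1, 7 and 2, 4 and 4, 8 and 1, and 10 and 10. Without both Xist-high arrays they were 3 and 1, 4 and 2, 3 and 5, 3 and 1, and 6 and 12. Between Isthmus and Chief, 3 partner genes were called, where 1.41% of all genes tested were. They were 1 of 29 in the recycling list and 2 of 43 in the cortical actin list, with 0 in the other lists. Ehd4, encoding an ATPase of endosomal membranes, read 10.81, 10.52 and 10.48 on the Isthmus arrays and 8.46, 9.27 and 8.53 on the Chief arrays, a difference of 1.85 (limma adjusted p = 0.0383). Enah, an actin regulator of the same family as Evl, was lower by -1.50 (adjusted p = 0.0445) and Actb, encoding beta-actin, by -0.44 (adjusted p = 0.0376). All 3 calls were lost without both Xist-high arrays (adjusted p = 0.121 for Ehd4, 0.169 for Enah and 0.115 for Actb) and without any 1 Parietal array, Isthmus replicate 1 or 2, or Chief replicate 1 or 3, where adjusted p reached 0.144 for Ehd4, 0.146 for Enah and 0.142 for Actb. The Ehd4 call was also lost without Isthmus replicate 3, and the Actb difference turned to 0.060 under quantile normalization.

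**Figure D4:**
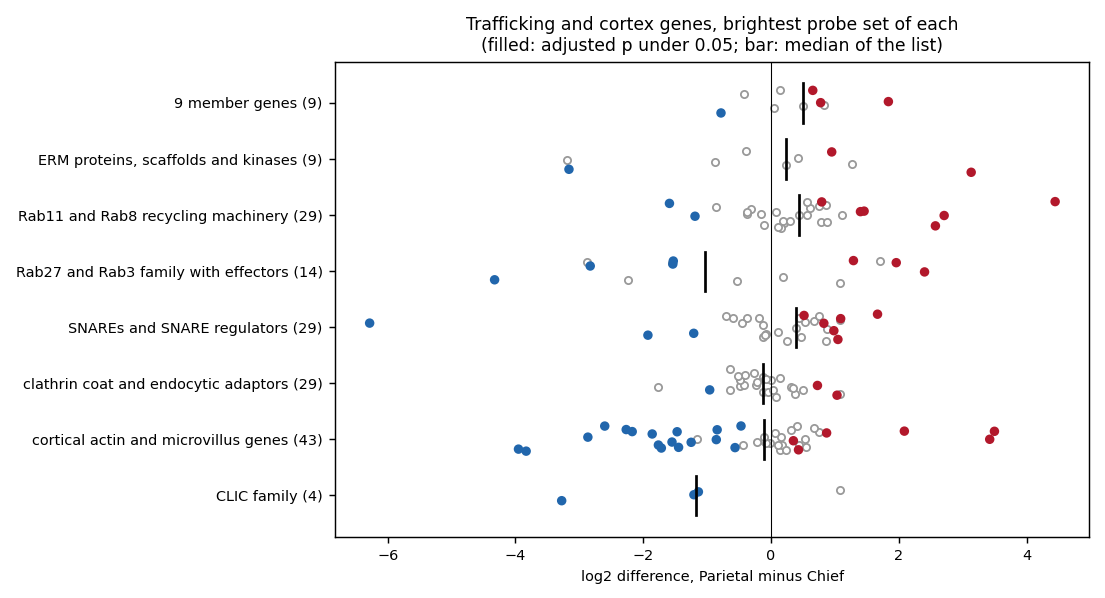
Log2 difference of every tested gene of the 7 partner lists, by list, for Parietal minus Chief, with the 9 genes above them; 1 point per gene, filled where the adjusted p was under 0.05, and a bar at the list's median. The 9 genes have their median at 0.50, the recycling list at 0.44 and the Rab27 and Rab3 list at -1.03, and genes of both directions lie in most lists.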

How the data were processed

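The authors made 1 log2 signal per probe set and array with MAS5, as the submitters' processing notes name it. No MAS5 version is given in the labels, and base 2 was settled from the deposited log2 values, whose 2% trimmed mean signal is 496 to 497 on every array. The number of arrays limits the precision. The platform annotation gave 1 gene to 34945 probe sets, several to 932 and none to 9160, and those with several were not used. Groups came from the sample titles.

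Differences were computed with limma 3.58.1 in R 4.3.3 (lmFit, contrasts.fit, eBayes with an intensity trend), 1 mean per group, all 9 arrays and 6 residual degrees of freedom. All 25662 probe sets above their array's median on at least 3 arrays were tested, two-sided, with Benjamini-Hochberg adjustment over them. A call was an adjusted p under 0.05. A gene was counted through its brightest probe set, by the mean of all 9 arrays. If the dimmer group held an array below its median, such values were raised to the median and the fold given as a bound. The text names all 9 genes and, from the partner lists, some of those that a rule gave: per list, up to 4 called genes with the largest Parietal minus Chief difference and up to 2 with the largest Isthmus minus Chief difference. Clic3 was added after its values were seen, as the remaining gene of its family. The fit was tested on simulated data. The genes and lists were chosen with earlier results of these data known. Alternatives changed the probe set rule, the normalization, a pseudocount of 16 or 64, the filter, the fit and the arrays.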

Additional observations from a re-analysis of the deposited data

How the results depend on the processing

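Over 22 alternatives, Clic6 and the Rab25 difference against Isthmus kept their calls, and the counts of genes called lower for Parietal minus Isthmus (1) and of genes called for Isthmus minus Chief (0 in each direction) were the same in each. For Parietal minus Chief the 3 genes higher became 6 on centring each array and 1 without the intensity trend. They became 4 with the mean of a gene's probe sets and with 2 groups in the fit, and 2 without both Xist-high arrays. With 1 array left out they ran from 2 to 4. The 1 gene lower became 0 on centring, with no filter, with 2 groups in the fit, without the intensity trend, with the replicate block and without both Xist-high arrays, and was 0 or 1 with 1 array left out. For Parietal minus Isthmus the 2 genes higher became 3 with 1 probe set per gene in the fit, 4 with the mean of a gene's probe sets and 6 on centring. They became 1 with quantile normalization, without the intensity trend and without both Xist-high arrays, and ran from 1 to 4 with 1 array left out. Differences that changed sign were all small. Under the mean of a gene's probe sets Lasp1 was at -0.072 (Parietal minus Chief), -0.13 (Parietal minus Isthmus) and 0.058 (Isthmus minus Chief), and Stx3 at -0.099 (Isthmus minus Chief). Under quantile normalization Lasp1 was at -0.023 (Parietal minus Isthmus) and 0.045 (Isthmus minus Chief), Hip1r at -0.070 (Isthmus minus Chief), and Actb, the beta-actin gene of the actin list, at -0.021 (Parietal minus Isthmus) and 0.060 (Isthmus minus Chief). On centring, Stx3 was at 0.27 (Parietal minus Chief), Rab27b at 0.26 (Parietal minus Isthmus) and Lasp1 at 0.20 (Isthmus minus Chief). Without both Xist-high arrays Rab27b was at 0.13 (Parietal minus Isthmus). With 1 array left out, Lasp1 ran from -0.052 to 0.12 (Parietal minus Chief), Rab27b from -0.16 to 0.13 (Parietal minus Isthmus) and Hip1r from -0.23 to 0.32 (Isthmus minus Chief). The cause of these changes was not tested. Over all genes, the intensity trend moved the calls most among the settings of the fit: without it 601 genes were higher and 966 lower for Parietal minus Chief, 765 and 1171 for Parietal minus Isthmus, and 3 and 16 for Isthmus minus Chief, where the chosen fit had 1086 and 1396, 1251 and 1573, and 37 and 118. Centring gave 1777 higher and 1107 lower for Parietal minus Isthmus and 121 and 27 for Isthmus minus Chief. Without both Xist-high arrays 571 and 861 genes were called for Parietal minus Chief and 0 and 21 for Isthmus minus Chief. No pairing by replicate number was seen. The deviations of same-numbered arrays correlated at -0.01 to 0.04 over 9 pairs, and those of other pairs at -0.04 to 0.02. Whether same-numbered arrays shared an animal or a batch cannot be told from this, and the labels do not give it. With the replicate block the Rab25 difference against Chief had an adjusted p of 0.0719 by limma. With 3 arrays a group, low signals and small differences could not be resolved.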
